A study of Bos taurus with 20 samples.

Results

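The genes described here encode the apicobasal polarity machinery: PARD3, PARD6B, PRKCI and PRKCZ of the Par complex, the GTPase CDC42 that activates it, CRB3 of the Crumbs complex, SCRIB, LLGL1 and DLG1 of the Scribble module, and EZR, which encodes ezrin. Members were the probe sets of a bovine expression array whose only gene symbol in the array annotation was one of these 10 names. This gave 11 probe sets, 2 of them for LLGL1, among 26773 on the array. Of the 11, 10 lay in the tested set, made of the 9933 brightest probe sets by mean, as many as the transcripts that the study took as expressed. SCRIB lay below it and was fitted with all 26773 probe sets.

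The arrays held RNA from bovine morulae made in vitro with sperm sorted for the X or the Y chromosome, which gives mostly but not entirely embryos of 1 sex. The 4 groups were female embryos given DKK1, female embryos given vehicle, male embryos given DKK1 and male embryos given vehicle, and vehicle groups are called controls. DKK1, a secreted inhibitor of canonical WNT signalling, was the human recombinant protein at 100 ng/ml, added at Day 5 after insemination, and the vehicle was buffered saline with albumin. All embryos were cultured in the same medium and harvested 24 h later, at Day 6, in pools of 20 morulae, with 5 pools per group and 1 array per pool. Pools mixed morulae that had compacted with morulae that had not. Sources used here do not give the proportion in each pool, so a difference in compaction, in cell number or in RNA per cell cannot be told apart from a difference in a transcript.

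Polarity divides a cell into an apical and a basolateral domain. PARD3 and PARD6B are scaffolds that bring the atypical protein kinases C, encoded by PRKCI and PRKCZ, to the apical membrane, where active CDC42 switches the kinase on. CRB3 stabilizes the apical domain, while SCRIB, LLGL1 and DLG1 hold the basolateral domain and oppose the kinase. In the mouse, blastomeres acquire an apical domain rich in ezrin around compaction, and outer cells that keep it become trophectoderm.

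Values are log2 intensities, so a difference of 1 is a 2-fold difference. Array medians lay between 4.58 and 4.82, and correlations between arrays over the tested set lay between 0.863 and 0.956. All 8 marker probe sets of morula cells were in the tested set (CDX2, GATA3, GATA6, KRT8, KRT18, NANOG, POU5F1 and SOX2). The tested set held 0 of 9 for cumulus and granulosa cells, 1 of 5 for sperm (TNP2) and 2 of 9 for the oocyte (BMP15 and ZP2). BMP15 averaged 7.70, with levels from 6.29 to 9.74 on single arrays. The array labelled male control replicate 2 stood apart. Its XIST level was 8.81, within the 8.42 to 10.03 of the 10 female arrays and above the 6.30 to 8.22 of the other male arrays. Its DDX3Y level was 4.82, also within the female range of 2.65 to 5.43 and below the 6.29 to 8.36 of the other male arrays. The label was kept, and values without this array are given beside the differences it moves most.

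The 10 genes were read by probes of different affinity, so their levels are placed on the array rather than set against each other. CDC42 averaged 10.63 and was at the 98.1st percentile of all probe sets. EZR averaged 10.26, at the 97.4th percentile, and PRKCI averaged 9.47, between percentiles 93.8 and 95.7 on single arrays. On single arrays these 3 probe sets never fell below percentile 93.8. A middle group held PARD6B at the 86.3rd percentile with a mean of 7.88, DLG1 at the 83.4th with 7.49, CRB3 at the 83.3rd with 7.49 and PARD3 at the 81.5th with 7.25. PRKCZ lay at the 76.2nd percentile with a mean of 6.65. The LLGL1 probe sets averaged 5.66 and 5.87, at percentiles 65.4 and 68.1, close to the lower bound of the tested set, which was a mean of 5.48. SCRIB averaged 4.94, at the 55.0th percentile, near the median of 4.65 over all probe sets, so its values carry little signal above that of a typical probe set.

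**Figure D1:**
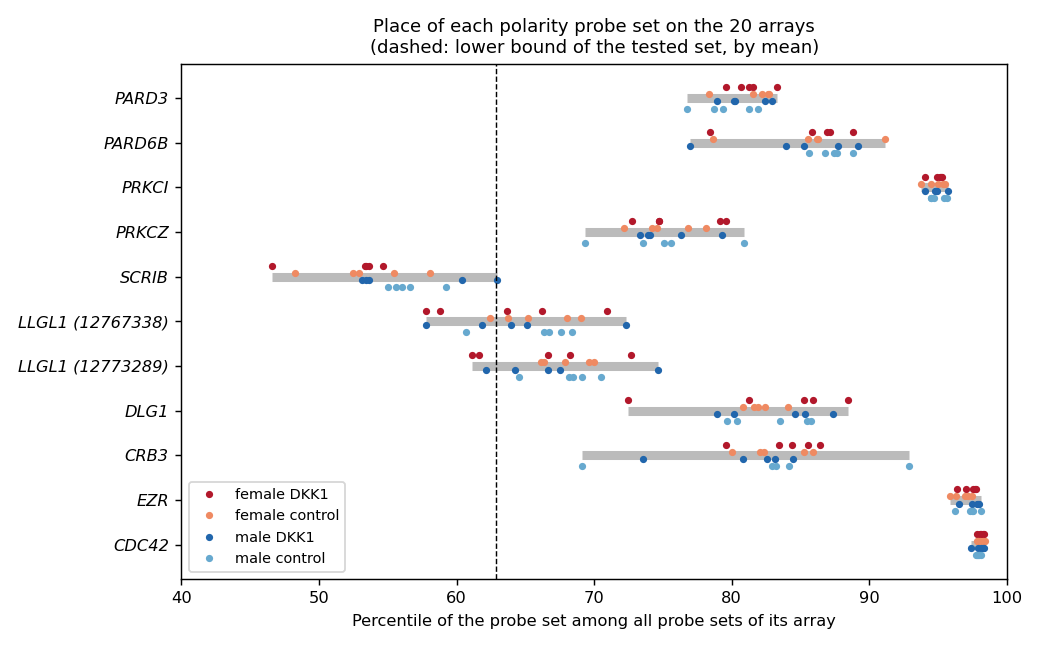
Percentile of each polarity probe set among all 26773 probe sets of its array, with 1 point for each of the 20 arrays, coloured by group, and a grey bar from the lowest to the highest array. The dashed line marks the lower bound of the tested set. CDC42, EZR and PRKCI stay within the top of the scale on all arrays, SCRIB lies left of the line by its mean, and CRB3 spans percentiles 69.1 to 92.9.

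The genes differed in how tightly the pools of a group agreed. The SD within groups was 0.154 for PRKCI and 0.157 for CDC42, lower than in over 95% of the tested set, which had a median SD of 0.366. SDs tended to fall with brightness over the tested set, and the ranks given here were not matched for level. PARD3 had an SD of 0.219 and EZR of 0.281, at percentiles 13.6 and 28.0 of the tested set. CRB3 had the largest spread of the members at 0.602, percentile 87.1, followed by DLG1 at 0.496, percentile 75.1, and PARD6B at 0.485, percentile 73.4.

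**Figure D2:**
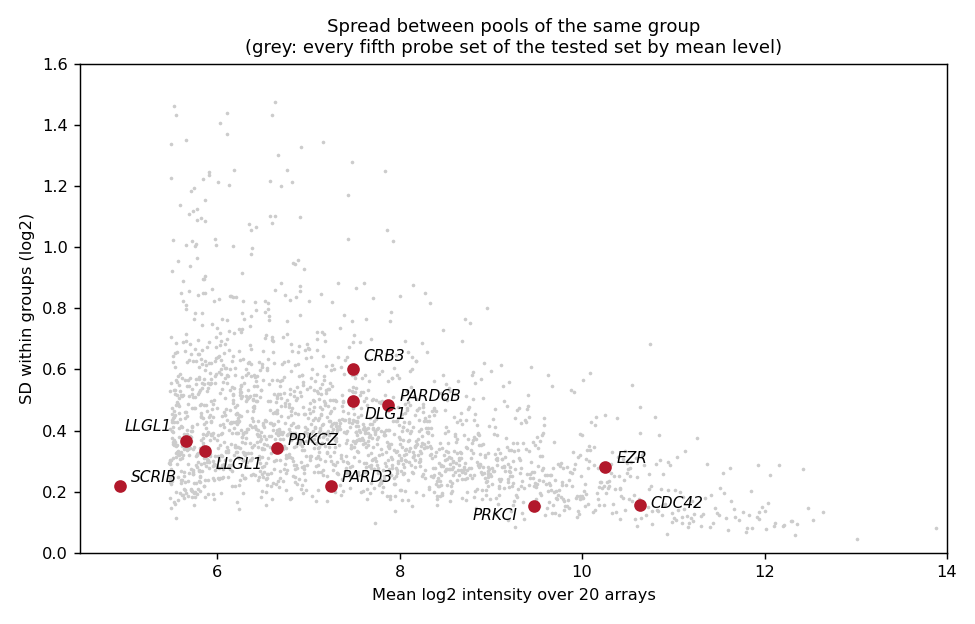
SD within groups (log2) against the mean log2 intensity over 20 arrays, for the 11 polarity probe sets (red) and for an evenly spaced subset of the tested set by mean level (grey). PRKCI and CDC42 lie lowest of the members, with SDs of 0.154 and 0.157, and CRB3 lies highest at 0.602.

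For PARD3, the scaffold that names the Par complex, female embryos given DKK1 had levels of 7.60, 7.03, 7.26, 7.40 and 7.23, and female controls 7.44, 7.35, 7.37, 6.99 and 7.46. Male embryos given DKK1 had levels of 7.22, 7.18, 7.44, 7.51 and 7.06, and male controls 7.06, 6.81, 7.28, 6.81 and 7.41. All 4 groups overlapped, and both lowest values of the series were male controls. PARD6B, the adaptor that joins CDC42 to the kinase, had levels of 7.03, 7.97, 8.35, 8.09 and 7.81 in female embryos given DKK1 and of 7.01, 7.87, 8.58, 7.94 and 7.91 in female controls. In male embryos given DKK1 it had levels of 7.66, 6.82, 8.34, 7.80 and 8.16, against 8.15, 7.88, 7.998, 8.30 and 7.88 in male controls. In each of the first 3 groups 1 array lay at about 7 or below, while the 5 male controls lay within a narrow band, with an SD of 0.182 against 0.591 for male embryos given DKK1, 0.496 for female embryos given DKK1 and 0.558 for female controls.

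PRKCI, the kinase of the complex, had levels of 9.30, 9.53, 9.57, 9.57 and 9.46 in female embryos given DKK1 and 9.49, 9.35, 9.51, 9.65 and 9.18 in female controls. In males, levels were 9.50, 9.47, 9.66, 9.47 and 9.33 with DKK1 and 9.39, 9.24, 9.67, 9.35 and 9.65 in controls. The whole series therefore lay between 9.18 and 9.67, and the 4 group means spanned 0.049. PRKCZ, the second kinase, ranged from 5.92 to 7.30, both of them male controls. CDC42 lay between 10.31 and 10.90 on all arrays, with group means of 10.69 in female embryos given DKK1, 10.64 in female controls, 10.65 in male embryos given DKK1 and 10.54 in male controls. Of the 3 genes, only PRKCZ had a group with an SD above 0.3, the male controls at 0.491.

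CRB3, the short transmembrane Crumbs protein of epithelia, had levels of 7.16, 7.76, 7.72, 7.99 and 7.51 in female embryos given DKK1 and 7.89, 7.44, 7.06, 7.39 and 7.78 in female controls. Male embryos given DKK1 had 7.30, 7.46, 7.69, 7.53 and 6.47, and male controls had 7.55, 8.81, 5.98, 7.66 and 7.57. The highest and the lowest CRB3 values of the series were thus both male controls, and the highest was the array labelled male control replicate 2. The SD of the male controls was 1.01, against 0.479 for male embryos given DKK1, 0.314 for female embryos given DKK1 and 0.330 for female controls.

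In the Scribble module, DLG1, a scaffold of cell junctions, ranged from 6.29 to 8.29. Both extremes were female embryos given DKK1, whose levels were 7.85, 6.29, 7.92, 8.29 and 7.24, against 7.39, 7.24, 7.35, 7.66 and 7.32 in female controls. LLGL1, which binds and restrains the kinase, had group means by its first probe set of 5.57 in female embryos given DKK1, 5.71 in female controls, 5.63 in male embryos given DKK1 and 5.74 in male controls. Its second probe set gave the same order of group means. Both followed each other closely over the 20 arrays (Pearson r = 0.98 and Spearman rho = 0.99, permutation P = 1e-05 for each, the smallest that 100000 permutations can give). As both read the same gene in the same pools, their shared order of means is not an independent result. SCRIB had levels of 4.82, 4.89, 4.81, 4.38 and 4.98 in female embryos given DKK1 and 5.13, 4.79, 4.63, 4.95 and 4.83 in female controls. Male embryos given DKK1 had 5.27, 5.48, 4.86, 4.83 and 4.84, and male controls had 4.95, 5.12, 5.03, 4.93 and 5.24. Female and male arrays overlapped, although the values up to 4.82 were all female and those from 5.24 up were all male. The 2 highest were male embryos given DKK1.

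EZR links the apical membrane to actin. Its levels were 10.43, 10.38, 10.18, 10.48 and 9.90 in female embryos given DKK1 and 10.38, 9.74, 9.996, 10.27 and 9.90 in female controls. In males they were 10.67, 10.52, 10.50, 10.31 and 10.06 with DKK1 and 10.31, 9.69, 10.37, 10.35 and 10.69 in controls. The groups overlapped, and the lowest of the 20 values, 9.69, was again the array labelled male control replicate 2. That array was also the lowest male control for PRKCI, PRKCZ and CDC42 by level. By percentile on its array, EZR was lower on female control replicate 2 (95.8, against 96.2). For PRKCI and CDC42, male control replicate 4 was lower by percentile (94.5 against 94.7 and 97.8 against 97.9). Whether the narrow spread of levels on male control replicate 2 accounts for its low values was not tested.

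**Figure D3:**
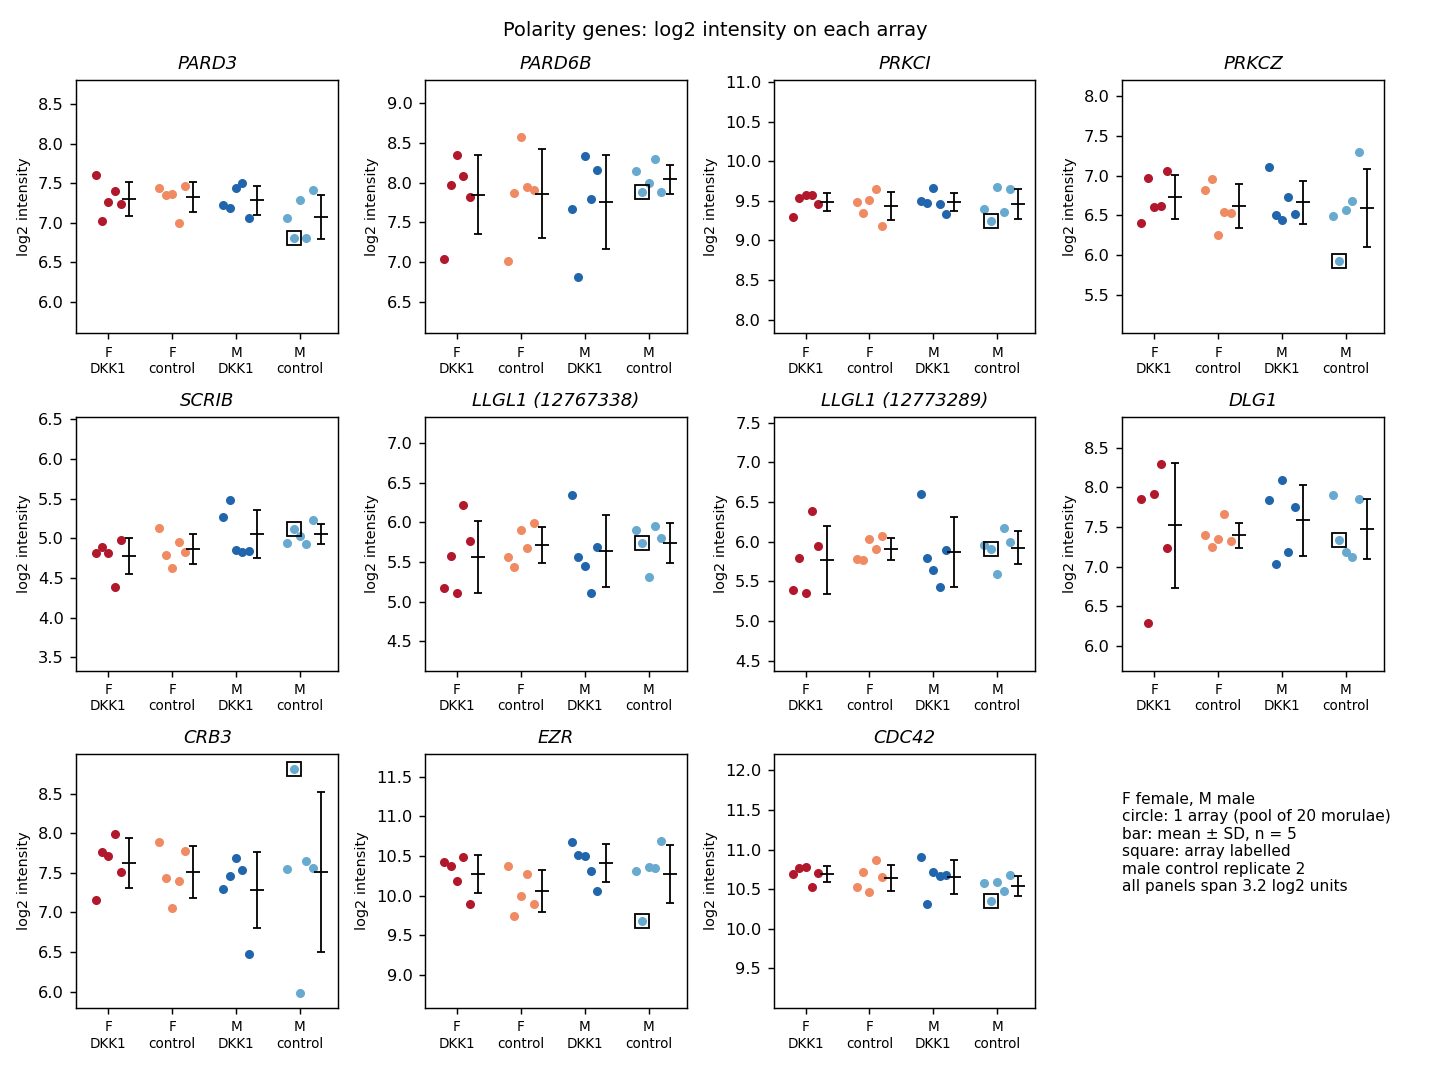
Log2 intensity of each polarity probe set on each array, with 1 circle per pool of 20 morulae, female (F) and male (M) embryos given DKK1 left of their controls, and the mean ± SD of 5 arrays as a bar. All panels span the same number of log2 units, and a square marks the array labelled male control replicate 2. The 4 groups overlap in every panel, PRKCI and CDC42 vary least, and for CRB3 the highest value (8.81) and the lowest (5.98) are both male controls.

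The order of the 4 group means was not the same for all genes. Male embryos given DKK1 had the highest mean for PRKCI, DLG1, EZR and SCRIB, male controls for PARD6B and both LLGL1 probe sets, female embryos given DKK1 for PRKCZ, CRB3 and CDC42, and female controls for PARD3. The distance from the highest to the lowest group mean was 0.35 for EZR, 0.34 for CRB3, 0.29 for PARD6B, 0.28 for SCRIB and 0.24 for PARD3, and under 0.2 for the others. A test across the 4 groups (limma F-test) gave unadjusted P values from 0.301 for EZR to 0.973 for PRKCI in the tested set and 0.170 for SCRIB. Thus 0 of 10 members had an unadjusted P under 0.05, where the background was 5.25% of the tested set. The orders are therefore a description, and no difference between neighbours in them was shown.

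The first comparison asked whether DKK1 altered transcript abundance averaged over both sexes. No polarity gene passed the test. EZR had the largest difference, with 10.34 in embryos given DKK1 and 10.17 in controls, a log2 difference of 0.17 ± 0.13 (SE, n = 10 arrays each, P = 0.192, adjusted P = 1.00 by limma). Without the array labelled male control replicate 2 the EZR difference was 0.10, and PARD6B, at -0.17, then had the largest. Leaving out that array also gave 0.06 for PARD3, 0.0092 for PRKCI, 0.0056 for PRKCZ and 0.11 for CRB3, which were 0.10, 0.037, 0.090 and -0.055 over all arrays. PARD6B differed by -0.15 ± 0.21 over all arrays, and by -0.26 without female control replicate 1 and -0.032 without male DKK1 replicate 2. The first LLGL1 probe set differed by -0.13 ± 0.16, and DLG1 by 0.12 ± 0.21. With 1 array left out, LLGL1 ran from -0.22 (without male DKK1 replicate 1) to -0.062 (without male DKK1 replicate 4). DLG1 ran from 0.020 (without female DKK1 replicate 4) to 0.27 (without female DKK1 replicate 2). The members not named in this paragraph differed by less than 0.1 in either direction. With limma, 0 of 10 members in the tested set had an adjusted P under 0.05, where 0% of all 9933 probe sets did, and 0 of 10 had an unadjusted P under 0.05, where the background was 3.61%. Of the 10, 6 were higher with DKK1, with a median difference of 0.06, while 58.5% of the tested set was higher, with a median of 0.03.

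The intervals show what size of DKK1 effect these pools leave possible. The 95% interval of the ratio of DKK1 to control was 0.906 to 1.16 for PRKCI, 0.934 to 1.20 for CDC42, 0.916 to 1.25 for PARD3 and 0.936 to 1.36 for EZR. It was 0.668 to 1.39 for CRB3, 0.669 to 1.22 for PARD6B, 0.799 to 1.47 for DLG1 and 0.855 to 1.32 for PRKCZ. The LLGL1 intervals were 0.727 to 1.15 and 0.757 to 1.16, and that of SCRIB was 0.837 to 1.13. For 0 of 10 members in the tested set did the interval reach a 1.5-fold difference in either direction, while it did for 2782 of the 9933 probe sets tested (28%). CRB3 and PARD6B stopped just short of it. With 1 array left out, between 1 and 3 of PARD6B, DLG1 and CRB3 reached 1.5-fold in 19 of 20 cases, the exception being female DKK1 replicate 1, so the count of 0 does not hold for these 3 genes. The interval of every member held some differences smaller than 1.5-fold, but not all of them, as that of PRKCI ran only from 0.906 to 1.16.

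Within a single sex the intervals were wider. In females, EZR differed by 0.22 ± 0.18 between embryos given DKK1 and controls (adjusted P = 0.998). In males, PARD3 differed by 0.21 ± 0.15 and PARD6B by -0.29 ± 0.29 (adjusted P = 0.986 for both). With limma, 0 of 10 members had an unadjusted P under 0.05 in either sex, where the background was 4.11% in females and 4.28% in males, and 0% of the tested set passed an adjusted P of 0.05 in either. Without the array labelled male control replicate 2, the DKK1 difference in males was 0.10 for CRB3 and -0.018 for EZR, against -0.22 and 0.13 over all arrays. The interval reached 1.5-fold for 5 of 10 members in females, where it did for 58.6% of the tested set, and for 3 of 10 in males, where it did for 59.2%.

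The second comparison asked whether female and male morulae differed, averaged over treatment. EZR averaged 10.17 in females and 10.35 in males, a difference of -0.18 ± 0.13 (n = 10 arrays each, P = 0.176, adjusted P = 0.985). Without the array labelled male control replicate 2 the difference was -0.25, which passed an unadjusted threshold of 0.05 but not the adjusted one (adjusted P = 0.552). PARD3 averaged 7.31 in females and 7.18 in males, a difference of 0.13 ± 0.11 (n = 10 arrays each, P = 0.226). CRB3 averaged 7.57 in females and 7.40 in males, a difference of 0.17 ± 0.25 (n = 10 arrays each, P = 0.510). For CRB3 the value depended on 2 arrays of the male controls, since the difference was 0.33 without replicate 2 (adjusted P = 0.782) and -0.02 without replicate 3 (adjusted P = 1.00).

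With limma, 0 of 10 members passed an adjusted P of 0.05 for sex, where 0.101% of the tested set (10 probe sets) did. At an unadjusted P under 0.05 the count was again 0 of 10, where the background was 6.39%. The interval reached 1.5-fold for CRB3 (0.780 to 1.62 as the ratio of female to male) and for no other member, and it did for 30.3% of the tested set. Without male control replicate 3 it reached that size for 0 of 10 members. SCRIB, below the tested set, averaged 4.82 in females and 5.05 in males, a difference of -0.23 ± 0.10 with an unadjusted P of 0.0343 (n = 10 arrays each). Over all 26773 probe sets 4.82% reached that threshold, and the adjusted P of SCRIB was 0.979.

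The third comparison, the DKK1 x sex interaction, subtracts the DKK1 difference of males from that of females. CRB3 had the largest value, 0.34 ± 0.50 (adjusted P = 0.970), made of a difference of 0.11 in females and -0.22 in males. It was 0.01 without male control replicate 2 and 0.72 without male control replicate 3 (adjusted P = 0.980), so these 2 arrays moved it in opposite directions. PARD6B had an interaction of 0.27 ± 0.41 (0.036 without male DKK1 replicate 2 and 0.48 without female DKK1 replicate 1) and PARD3 of -0.22 ± 0.21 (adjusted P = 0.970 for PARD3). With limma, 0 of 10 members had an unadjusted P under 0.05, where the background was 4.60%, and 0% of the tested set passed an adjusted P of 0.05. Without the array labelled male control replicate 2 the interaction was 0.24 for EZR and 0.21 for PRKCZ, against 0.087 and 0.040 over all arrays. Intervals of the interaction reached 1.5-fold for 8 of 10 members, close to the 85.1% of the tested set for which they did.

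**Figure D4:**
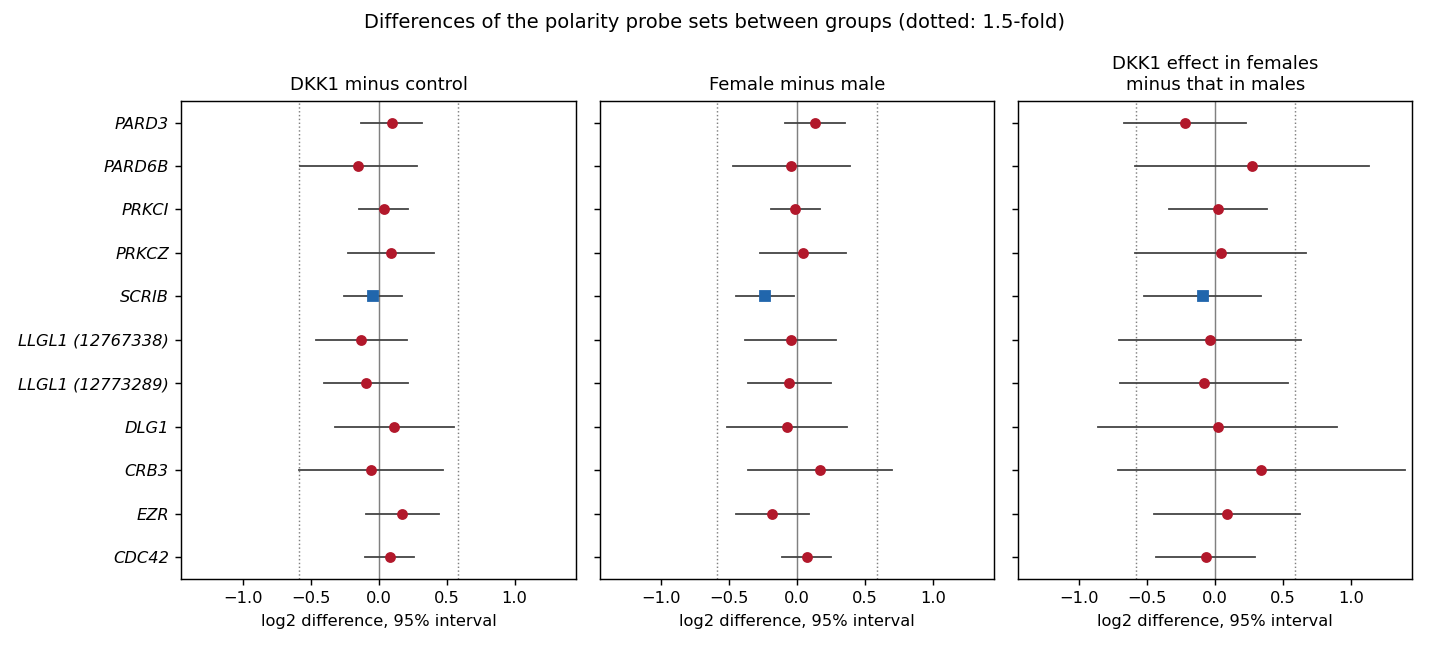
Log2 differences of the 11 polarity probe sets with 95% intervals, for DKK1 minus control, female minus male and the DKK1 x sex interaction. Circles were fitted in the tested set, the square (SCRIB) with all probe sets, and dotted lines mark a 1.5-fold difference. In the DKK1 panel all intervals include 0 and stay inside the dotted lines, those of CRB3 and PARD6B by a small margin, and in the sex panel only that of SCRIB excludes 0.

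Levels over the 20 arrays were compared between the members, with differences between group means left in. Over the 20 arrays, Pearson r between probe sets of different genes ran from -0.56 to 0.59 with a median of 0.13, and 0 of 54 pairs had an adjusted permutation P under 0.05, while 3 had an unadjusted P under 0.05. The highest was PRKCI with EZR (r = 0.59, permutation P = 0.0067, adjusted P = 0.305, rho = 0.52, permutation P = 0.0192, adjusted P = 0.852), which was 0.40 without the 2 arrays farthest from the PRKCI median. The lowest was PARD6B with SCRIB (r = -0.56, permutation P = 0.0117, adjusted P = 0.305, rho = -0.48, permutation P = 0.0316, adjusted P = 0.852), which was -0.29 without the 2 arrays farthest from the PARD6B median. PRKCZ with CDC42 was the third (r = 0.53, permutation P = 0.0169, adjusted P = 0.305, rho = 0.45, permutation P = 0.04995, adjusted P = 0.853), and was 0.39 without the array labelled male control replicate 2. With group means removed, r was 0.60 for PRKCI with EZR, -0.70 for PARD6B with SCRIB and 0.52 for PRKCZ with CDC42, values that were not tested. All arrays shared one normalization.

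For each member in the tested set, the probe set of another gene with the highest r over the 20 arrays was looked up among those with 1 symbol (7630, and 7629 for LLGL1), as a description without a test. For CRB3 this was CDX2, a transcription factor of the trophectoderm (r = 0.76, rho = 0.67). Both were high on male control replicate 2 (8.81 for CRB3 and 8.65 for CDX2), and r was 0.56 without that array and male control replicate 3. For EZR it was AP2B1, a subunit of the clathrin adaptor (r = 0.81, rho = 0.78, and r = 0.73 without the 2 arrays farthest from the EZR median). For PRKCI it was DHX30, an RNA helicase (r = 0.73), for CDC42 it was ARL15, a small GTPase (r = 0.78), and for PRKCZ it was TMED10, a protein of vesicle traffic between endoplasmic reticulum and Golgi (r = 0.75). For PARD3 it was YEATS2, a reader of histone acylation (r = 0.79), for DLG1 the RNA-binding protein RBM26 (r = 0.79), for PARD6B the kinase WNK1 (r = 0.69), and for both LLGL1 probe sets STK19 (r = 0.70 and 0.66). A maximum over so many probe sets is high by construction, and without the 2 arrays farthest from each member's median these values ran from 0.42 for PARD6B to 0.73 for EZR.

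The wider polarity machinery was taken from a list of 39 further genes, of which 38 had a probe set and 26, with 27 probe sets, were in the tested set. None passed an adjusted P of 0.05 by limma in any of the 5 comparisons. For sex, 4 of 27 probe sets (14.8%) had an unadjusted P under 0.05, 2 higher and 2 lower in females, where the background was 6.39%. For the interaction it was 1 of 27 (3.70%), against a background of 4.60%, and for DKK1 in females 1 of 27, against 4.11%. For DKK1 over both sexes it was 0 of 27, against 3.61%, and for DKK1 in males 0 of 27, against 4.28%. The share for sex lay above the background, by an excess that was not tested, and the other shares lay near or below it.

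LIN7C, a small scaffold that joins the Crumbs complex through PALS1, was the most different between sexes. It had a lowest, median and highest level of 7.98, 8.53 and 9.09 in the 10 female arrays, and of 8.61, 9.13 and 9.48 in the 10 male arrays. The sexes overlapped, with a difference of -0.54 ± 0.15 (n = 10 arrays each, P = 0.00217, adjusted P = 0.217). MSN, the X-linked gene of moesin and a relative of EZR, had 8.83, 9.40 and 9.62 in female arrays, and 8.10, 8.89 and 9.33 in male arrays, a difference of 0.45 ± 0.13 (n = 10 arrays each, P = 0.00225, adjusted P = 0.217). The 5 female controls (8.83 to 9.44) overlapped the male arrays. All 5 female arrays with DKK1 (9.38 to 9.62) lay above all 10 male arrays, a pattern whose frequency in the tested set was not counted. The highest male array, 9.33, was the array labelled male control replicate 2. Without it the MSN difference was 0.51 with an adjusted P of 0.0825. EZR, by comparison, differed by -0.18 between sexes, and RDX, the third gene of that family, had no unadjusted P under 0.05 in any comparison.

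IQGAP1, a scaffold that binds active CDC42, had a lowest, median and highest level of 8.11, 8.51 and 8.83 in female arrays, and of 8.34, 8.83 and 9.14 in male arrays (difference -0.32 ± 0.11, n = 10 arrays each, P = 0.00833, adjusted P = 0.423). STK11, the polarity kinase also called LKB1, differed by 0.32 ± 0.15 between sexes by 1 probe set (n = 10 arrays each, P = 0.0458, adjusted P = 0.761) and by 0.02 by the other. The difference of the first was 0.39 without male control replicate 2, whose level of 6.46 was the highest of the male arrays, and 0.24 without male DKK1 replicate 1. Its unadjusted P was under 0.05 in only 10 of 29 alternatives, so 1 of the 4 sex differences counted here depends on the setting. DLG3, the X-linked relative of DLG1, had an interaction of 0.59 ± 0.24 (adjusted P = 0.970). It averaged 6.40 in female embryos given DKK1, 6.09 in female controls, 6.02 in male embryos given DKK1 and 6.31 in male controls. PODXL, the apical sialomucin podocalyxin, averaged 6.40 in female embryos given DKK1 and 6.74 in female controls, a difference of -0.34 ± 0.15 (adjusted P = 0.998). Its levels with DKK1 in females were 6.23, 5.93, 7.01, 6.45 and 6.37, of which 4 lay below all 5 controls (6.61 to 6.88) and 1 above them. The difference was -0.22 without female DKK1 replicate 2 and -0.50 without female DKK1 replicate 3, and its unadjusted P was under 0.05 in 21 of 29 alternatives.

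**Figure D5:**
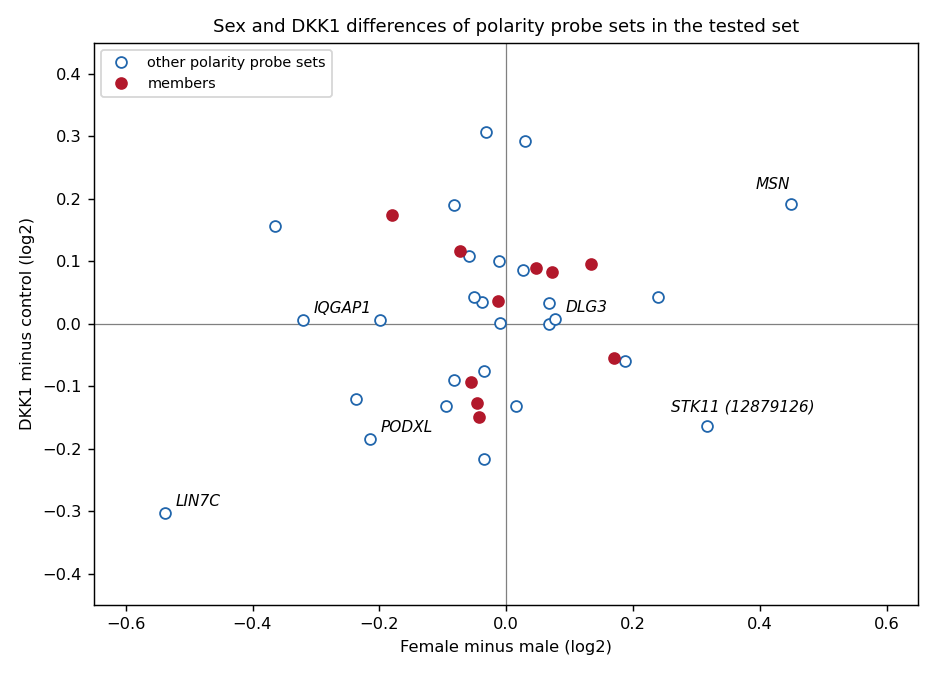
DKK1 minus control (log2, vertical) against female minus male (log2, horizontal) for the 10 members (red) and the 27 other polarity probe sets (open) of the tested set. Names mark the other genes with an unadjusted P under 0.05 in any comparison. The members stay between -0.18 and 0.17 on both axes, while LIN7C, at -0.54, and MSN, at 0.45, lie farthest apart on the sex axis.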

How the data were processed

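The deposited values are log2 intensities, 1 per probe set and array, computed by the authors with the robust multi-array average in Affymetrix Expression Console (background correction and quantile normalization) from amplified cDNA on Bovine Gene 1.0 ST arrays. Program versions and a genome build are not given in the sources used here. Groups came from the labels, and all arrays were used. The array annotation gave 1 symbol to 18457 probe sets, several to 688 and listed none for 7628. A cell-means model of the 4 groups was fitted with limma 3.58.1 in R 4.3.3 (moderated variances, Benjamini-Hochberg over the 9933 tested probe sets, threshold 0.05) and was tested on simulated data. No replicate term was used, as in the array model of the study. Pools were harvested in 5 replicates, but the labels do not say what a replicate number marks. Same-numbered arrays deviated together with r from -0.18 to 0.131 (median 0.0223), above 0.1 in 2 of 30 pairs. Different-numbered arrays had r from -0.167 to 0.366 (median -0.00214), above 0.1 in 3 of 120 pairs. The numbers were therefore not taken to pair arrays. P values of limma set a difference between groups against the spread between pools, which may be partly technical, and the number of arrays limits the precision. Correlations between members used 100000 permutations (SciPy 1.17.1), two-sided. Named genes were all members, other polarity genes with an unadjusted P under 0.05 in any of the 5 comparisons, and the gene most correlated with each member. Members and lists were chosen with earlier results of these data known. RefSeq names (ARS-UCD2.0) were used to update symbols. The 29 alternatives comprised a replicate block (fixed or random), unmoderated variances, array weights, a robust prior with an intensity trend, all probe sets, a tested set of probe sets with 1 symbol, median centring, quantile normalization, and each of the 20 arrays left out.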

Additional observations from a re-analysis of the deposited data

Results flagged for a closer look

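Of 68 sets of 5 arrays examined (17 probe sets in 4 groups), 3 held an array far from the other 4 by Dixon's ratio of the gap to the range, and chance gives about 1 in 20. PARD3 was 6.99 on female control replicate 4, while the next female control was 7.35. SCRIB was 4.38 on female DKK1 replicate 4, while the next was 4.81. LIN7C was 8.86 on female DKK1 replicate 3, while the next was 8.38.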

How the results depend on the processing

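Over 33 member differences (11 probe sets for DKK1, sex and their interaction) and 951 values under alternatives, 0 had an adjusted P under 0.05 (lowest 0.552, EZR for sex without male control replicate 2), 21 had an unadjusted P under 0.05 (20 of them SCRIB for sex and 1 EZR for sex), and 55 changed sign. The signs of 15 differences never changed. The cause of sign changes was not tested, and all were of differences whose 95% interval included 0. With array weights PRKCZ was -0.053 for DKK1 and -0.078 for sex. With each array centred on its median PRKCI was -0.0041 for DKK1 and the first LLGL1 probe set 0.0068 for the interaction. With 1 array left out, the DKK1 effect ran from -0.25 to 0.11 for CRB3 and from -0.096 to 0.0061 for SCRIB. The sex effect ran from -0.022 to 0.33 for CRB3, from -0.17 to 0.081 for DLG1, from -0.16 to 0.064 for PARD6B, from -0.040 to 0.019 for PRKCI, from -0.037 to 0.13 for PRKCZ, and from -0.13 to 0.043 and from -0.13 to 0.035 for the LLGL1 probe sets. The interaction ran from -0.18 to 0.33 for DLG1, from -0.015 to 0.24 for EZR, from -0.043 to 0.076 for PRKCI, from -0.14 to 0.21 for PRKCZ, from -0.15 to 0.013 for SCRIB, and from -0.20 to 0.14 and from -0.24 to 0.097 for the LLGL1 probe sets.

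The count of probe sets with an adjusted P under 0.05 for sex was 10. It was 24 with unmoderated variances, 28 with an intensity trend, 43 with array weights, 6 among probe sets with 1 symbol, 5 with quantile normalization, and 3 to 35 with 1 array left out (35 without male control replicate 2). With all probe sets tested, counts at an unadjusted P under 0.05 were 1062 for DKK1, 1291 for sex, 1123 for the interaction, 1096 for DKK1 in females and 1080 for DKK1 in males, from a larger set, and 1 probe set had an adjusted P under 0.05 for the interaction and 1 for DKK1 in females. With the replicate block the count for sex was 14 and the PARD3, EZR and CRB3 DKK1 effects kept their values, with P values of 0.389, 0.188 and 0.830; the block changed no call of a member. SCRIB has no value with quantile normalization over the tested set, since it lies outside it.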

Other observations

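Among the 13 other polarity probe sets below the tested set, 3 had an unadjusted P under 0.05 for sex in the fit of all probe sets, where 4.82% did, and they were chosen after their values were seen. LLGL2, the epithelial relative of LLGL1, averaged 5.19 in females and 5.60 in males (n = 10 arrays each, P = 0.0343, adjusted P = 0.979 by limma). LIN7A, a relative of LIN7C, averaged 5.07 in females and 4.62 in males (n = 10 arrays each, P = 0.0271, adjusted P = 0.943 by limma). MPDZ, a scaffold related to PATJ, averaged 3.78 in females and 4.05 in males (n = 10 arrays each, P = 0.0351, adjusted P = 0.981 by limma). Over all arrays LIN7A averaged 4.84, near the median of 4.65 over all probe sets, and MPDZ averaged 3.92, below it. The values of LIN7A and MPDZ carry little signal, if any, above that of a typical probe set.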
